A study of Mus musculus with 4 samples.

Results

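The genes described here are 10 genes of young neurons, Stmn2, Stmn3, Elavl3, Elavl4, Dcx, Gap43, Nefl, Nefm, Crmp1 and Ina, read in 2 tissues of the mouse embryo. They were chosen by name from the 15095 gene symbols on the array, by taking every probe that the platform annotation assigns to any of them. This gave 10 probes out of 22702, with 1 probe for each gene. Metanephric mesenchyme (MM), the tissue that condenses into the nephrons of the permanent kidney, was compared with intermediate mesoderm (IM), the embryonic tissue that gives rise to the urogenital organs. Both were dissected from embryos of both sexes at 10.5 days post coitum (dpc), and their amplified RNA was hybridised together on 4 arrays with no common reference. MM was channel 1 on arrays 1 and 2 and channel 2 on arrays 3 and 4, whose labels interchange the words mesenchyme and mesoderm and were read by their opening word. The labels give no strain or genotype, and state neither how many embryos were pooled nor whether arrays share RNA extracts. The p-values thus measure only how these arrays vary, and that variation may be technical.

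The proteins fall into functional groups that work together in a neuron that is extending an axon. Stathmins, doublecortin and the collapsin response mediators bind tubulin or microtubules. Neurofilament proteins and alpha-internexin build the intermediate filaments of the axon, and the neuronal Elav-like proteins bind AU-rich messages and stabilise them during neuronal differentiation. In the trunk of an embryo of this age such genes are known from the neural tube, the dorsal root ganglia and the neural crest cells that form sympathetic and enteric neurons.

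Every value below is a log2 ratio of MM over IM, so a positive value means a higher signal in MM. This direction is the likely reading of the labels, which put MM before IM and say that arrays 3 and 4 were already reversed, but they do not give the dye of each channel. The lowest value that the files hold is -6.64, the log2 of a ratio of 0.01, and values there were treated as a floor, without a fold. A ratio from whole tissue cannot tell fewer cells of a type apart from less RNA in each cell, and this applies to every gene below. The files hold no intensities, so how far a probe stood above background is unknown.

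Of the 10 probes, 7 had a value above the floor on all 4 arrays, 3 had a value at the floor (Stmn3, Elavl3 and Nefl), and 2 of those 3 lacked a value on 1 array. Elavl4, Dcx and Ina were lower in MM on all 4 arrays and passed the threshold of an adjusted p of 0.05 in limma both with and without a term for channel orientation. Crmp1 was slightly higher in MM on all 4 arrays and passed in both fits. Thus 4 of the 7 were called in both fits, against 30.1% of all probes above the floor. All 3968 probes called without the term were also called with it, so a call in both fits is the same as a call without the term. Gap43, Nefm and Stmn2 passed with the orientation term alone. The mean of 0 of the 7 reached 2-fold. Among all probes tested, including those with floor values, only 5.25% were called in both fits with a mean of at least 2-fold. A count of 0 of 7 is thus not particular to the members.

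The 8 probes with 4 values all passed in limma with the orientation term, 2 as higher and 6 as lower, and 1 of the 6 rested on the floor. Over all 14184 probes tested the share called in that fit was 61.9%, with 23.8% higher and 38.1% lower. Without the orientation term 4 of the 8 were called, 1 higher and 3 lower, beside 28.0% of all probes. The median log2 ratio of the 7 members above the floor was -0.58, with values between -0.97 and 0.33. Over all 13191 probes above the floor the median was -0.05. With the arrays of each orientation averaged to 1 value, which leaves 2 values a probe, limma called 0 of the 14184 probes and 0 of the 8 members, with 1526 probes and 2 members at an unadjusted p under 0.05.

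**Figure D1:**
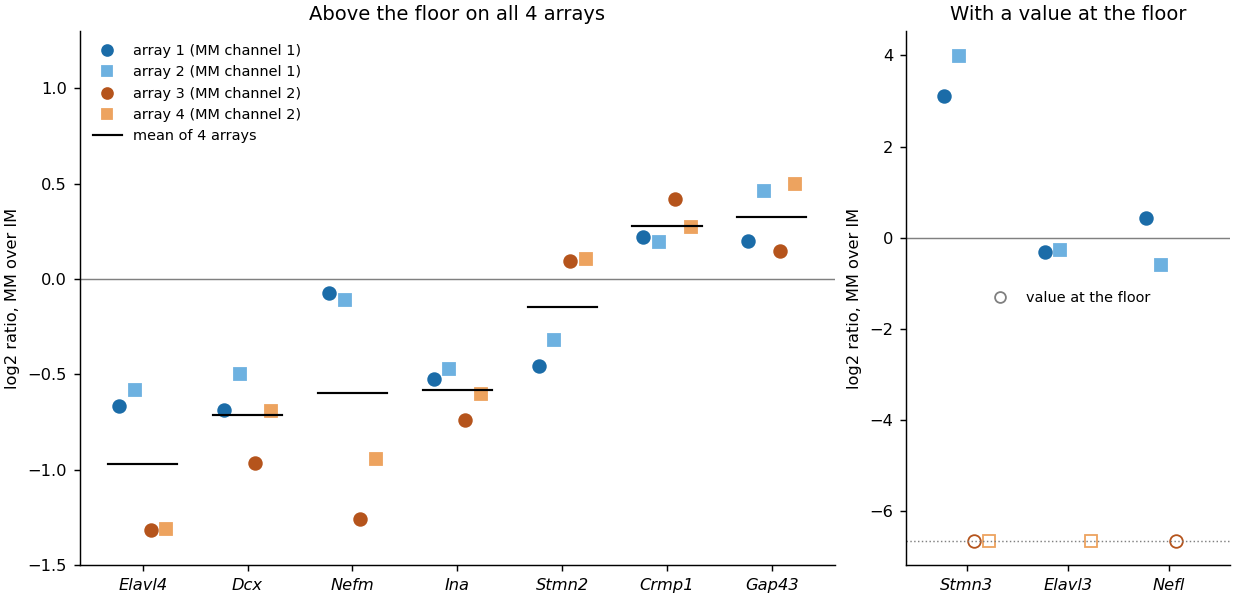
Log2 ratio of MM over IM for each of the 10 genes on each array. Left, the 7 genes above the floor on all arrays, ordered by their mean (black line); right, the 3 genes with a value at the floor (open symbols on the dotted line at -6.64). Elavl4, Dcx, Nefm and Ina lie below 0 on every array, Crmp1 and Gap43 above 0 on every array, and Stmn2 on both sides of 0.

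Promoter sequences are shown for Elavl4, Dcx and Ina because these were the members that were lower in MM in both fits. Each is a window of 300 bases, 250 before and 50 after an annotated start in RefSeq on GRCm38.p6, written 5′ to 3′ on the strand of the gene. For genes with several starts, the window farthest 5′ is given. Capitals mark matches to CANNTG, the E-box bound by proneural basic helix-loop-helix factors, and to TATAAA, the TATA box, searched on both strands. The Elavl4 window is chr4:110351862-110352161 on the minus strand, the Dcx window chrX:143933170-143933469 on the minus strand, and the Ina window chr19:47014431-47014730 on the plus strand.
Elavl4: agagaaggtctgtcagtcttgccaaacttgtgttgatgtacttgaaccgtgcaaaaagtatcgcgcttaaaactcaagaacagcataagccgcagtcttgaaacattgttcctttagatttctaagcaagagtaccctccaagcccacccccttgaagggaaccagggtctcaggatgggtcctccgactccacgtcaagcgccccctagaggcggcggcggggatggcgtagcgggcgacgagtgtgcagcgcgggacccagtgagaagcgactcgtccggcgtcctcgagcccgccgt
Dcx: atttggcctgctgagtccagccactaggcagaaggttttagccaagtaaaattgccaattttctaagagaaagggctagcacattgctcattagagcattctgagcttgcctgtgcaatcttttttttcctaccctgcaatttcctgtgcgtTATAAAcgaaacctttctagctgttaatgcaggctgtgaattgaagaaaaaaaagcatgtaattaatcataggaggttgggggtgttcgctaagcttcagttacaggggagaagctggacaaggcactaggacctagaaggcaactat
Ina: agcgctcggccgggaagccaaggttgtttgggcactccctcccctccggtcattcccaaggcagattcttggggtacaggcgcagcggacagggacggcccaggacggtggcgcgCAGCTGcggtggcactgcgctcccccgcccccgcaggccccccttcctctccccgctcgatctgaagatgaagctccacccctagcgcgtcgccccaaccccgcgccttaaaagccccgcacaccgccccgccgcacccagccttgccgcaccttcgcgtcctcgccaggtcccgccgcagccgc

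The windows differed in base composition. G and C made up 71.7% of the Ina window, 57.0% of the Elavl4 window and 43.0% of the Dcx window, against a median of 52.7% over all 32851 RefSeq windows of this length. The Ina window held 1 E-box and no TATAAA, the Dcx window held 1 TATAAA and no E-box, and the Elavl4 window held neither. Elavl4 had 4 annotated windows and Dcx 2, and only the window shown was read here for each. Over the 11 windows annotated for 6 of the members, CANNTG was in 7, from 5 genes, and TATAAA in 3, from 2 genes. CANNTG was present in 72.3% of all windows and TATAAA in 13.6%. TTCAGCACC, the left part of the element bound by the neuronal repressor REST, was in 0 of the 11 windows annotated for 6 of the members and in 0.4% of all windows. A match here is a run of letters and not a known site, and the absence of these letters says nothing about the factor.

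Elavl4 encodes HuD, an RNA-binding protein that appears as neurons leave the cell cycle, and it had the lowest mean of the 7 members above the floor. Arrays 1 and 2 gave -0.66 and -0.58 for its probe (CS:1412:CGEN_MOUSE_3001426_1), while arrays 3 and 4 both gave -1.31. All 4 values were on the IM side, and the arrays of either orientation lay close together. The mean was -0.97 ± 0.40 (SD, n = 4), which is 1.96-fold lower in MM, with a limma adjusted p of 0.000663, and 0.0276 without the orientation term. The 95% interval was -1.06 to -0.88 with the term, which counts only the spread within orientations, and -1.47 to -0.47 without it. The call held in 12 of 13 other settings, with limma adjusted p between 0.000533 and 0.0294, and was lost with each orientation averaged to 1 value (0.480). Between 11.4% and 14.8% of the values on each array were lower, with values at the floor counted. Arrays 3 and 4 held 1672 and 1805 floor values, against 16 and 8 on arrays 1 and 2. These ranks thus cannot be compared between orientations. The orientation term itself passed for Elavl4 (limma adjusted p = 0.00884), as it did for 44.6% of all probes.

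Elavl3 encodes HuC, its close relative in postmitotic neurons, and could not be tested. Arrays 1 and 2 gave -0.31 and -0.26, array 3 gave no value, and array 4 was at the floor. Both measured values were on the IM side, like those of Elavl4 on the same arrays, but smaller. With probes of 3 values admitted, limma gave Elavl3 an adjusted p of 0.00213 as lower, an outcome that rests on the floor value and has no measured fold.

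The other genes of this family read differently. Elavl1, or HuR, the member found in all cell types, was covered by 2 probes that disagreed. The first read 1.31, 1.16, 0.78 and 1.06 on arrays 1 to 4 and was higher in MM in both fits (mean 1.08 ± 0.22, SD, n = 4, limma adjusted p = 0.00189). The other stayed between -0.15 and -0.03 and did not pass (adjusted p = 0.0509). Elavl2, or HuB, which is shared by neurons and germ cells, read 1.14 and 1.75 on arrays 1 and 2 and had no value on arrays 3 and 4. Of 4243 probes measured on arrays 1 and 2 alone, 27.7% averaged at least 2-fold higher in MM there. Among the 13191 probes above the floor on all arrays it was 6.1%. The part of this pattern in the Elavl2 values was not tested.

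Dcx encodes doublecortin, which stabilises microtubules in migrating young neurons, and it was lower in MM. Arrays 1 and 2 gave -0.69 and -0.50 for its probe (CS:6473:CGEN_MOUSE_3006541_1), while arrays 3 and 4 gave -0.97 and -0.69. The values of arrays 3 and 4 lay below those of arrays 1 and 2, though arrays 1 and 4 were almost equal, and the orientation term did not pass (limma adjusted p = 0.244). The mean was -0.71 ± 0.19 (SD, n = 4), or 1.64-fold lower in MM (limma adjusted p = 0.00470, and 0.0121 without the orientation term). Leaving out array 1 or array 2 moved Dcx to the other side of the threshold, at limma adjusted p = 0.0595 and 0.0506. The estimates were then -0.66 and -0.76, each the average of the means of the 2 orientations. Its relative Dclk1, a kinase with doublecortin domains, read 2.85 and 3.49 on arrays 1 and 2 and had no value on the others, so the pair could not be compared over both orientations.

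Among the intermediate filament genes, Ina was the member with the least spread. Ina encodes alpha-internexin, a filament protein that appears in neurons before the neurofilament triplet. Arrays 1 and 2 gave -0.52 and -0.47 for its probe (CS:3999:CGEN_MOUSE_3004041_1), while arrays 3 and 4 gave -0.74 and -0.60. All 4 values lay within 0.27 of each other, and the orientation term did not pass (limma adjusted p = 0.148). The mean was -0.58 ± 0.12 (SD, n = 4), or 1.50-fold lower in MM (limma adjusted p = 0.00209, and 0.00835 without the orientation term). The call held in 12 of 13 other settings, with adjusted p between 0.00147 and 0.0339, and was lost with each orientation averaged to 1 value (0.464).

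Nefm encodes the medium neurofilament chain, and its difference was read on arrays 3 and 4 more than on arrays 1 and 2. Its probe (CS:4036:CGEN_MOUSE_3004078_1) gave -0.07 on array 1, -0.11 on array 2, -1.26 on array 3 and -0.95 on array 4. The values of the orientations did not overlap, and their means differed by 1.01. The mean was -0.60 ± 0.60 (SD, n = 4, limma adjusted p = 0.00616), an SD as large as the mean, and without the orientation term it did not pass (adjusted p = 0.188). Nefm also lost its call without array 1 (adjusted p = 0.0769), without array 2 (0.0784), and on arrays 1 and 2 alone, where the mean was -0.09 (0.213). On arrays 3 and 4 alone the mean was -1.10 (limma adjusted p = 0.0418).

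Nefl encodes the light neurofilament chain, which the other chains need in order to assemble. It lies beside Nefm on chromosome 14, with 1 annotated gene between them that is not protein-coding. Its probe read 0.44 on array 1 and -0.59 on array 2, stood at the floor on array 3 and had no value on array 4. The measured values had opposite signs within an orientation, so they give no direction. With probes of 3 values admitted, Nefl was called lower in limma (adjusted p = 0.0182), which rests on the floor value.

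Of the other intermediate filament genes, Nes was lower in both fits, like Ina. It encodes nestin, the filament of neural and other progenitors, and it read -0.60, -0.70, -0.55 and -0.72 on arrays 1 to 4 (mean -0.64 ± 0.08, SD, n = 4, limma adjusted p = 0.00242, and 0.00467 without the orientation term). Nefh, the heavy neurofilament chain, was split by orientation, at -0.47, -0.49, 0.28 and -0.02 on arrays 1 to 4, and did not pass (adjusted p = 0.0983). Prph, the filament of peripheral neurons, gave 1.33 on array 1, 1.05 on array 2 and floor values on both other arrays. Vim, the filament of mesenchyme, read 0.52, 0.55, -0.30 and -0.20 on arrays 1 to 4. Vim passed as higher with the orientation term (limma adjusted p = 0.0312) and not without it (0.672).

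Crmp1 encodes a collapsin response mediator, a tubulin-binding protein of semaphorin signalling, and it was on the MM side on every array. Its probe (CS:6458:CGEN_MOUSE_3006525_1) gave 0.22 on array 1, 0.20 on array 2, 0.42 on array 3 and 0.27 on array 4. The difference was small and steady, with a mean of 0.28 ± 0.10 (SD, n = 4), or 1.21-fold higher (limma adjusted p = 0.01, and 0.0375 without the orientation term). Without array 1 or array 2 the adjusted p was 0.0827 and 0.0775. Either orientation by itself gave 0.0659 (arrays 1 and 2) or 0.0671 (arrays 3 and 4). Dpysl3, a relative of the same family, read 0.34, 0.35, 0.22 and 0.18 and was also higher in both fits (mean 0.27 ± 0.09, SD, n = 4, limma adjusted p = 0.00448). Dpysl4 and Dpysl5 averaged 0.06 and 0.07 and did not pass. Dpysl2, read at 1.48, 0.54, -0.43 and -0.80, changed sign between orientations and did not pass (adjusted p = 0.448).

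Gap43 encodes the growth cone phosphoprotein of extending axons, and it leaned to the MM side. Its probe (CS:127:CGEN_MOUSE_3000128_1) gave 0.20 on array 1, 0.46 on array 2, 0.15 on array 3 and 0.50 on array 4. The orientations had almost the same mean, 0.33 and 0.32, and the spread lay between arrays of the same orientation. The mean of 0.33 ± 0.18 (SD, n = 4), or 1.25-fold higher, stood at the edge of the threshold (limma adjusted p = 0.0484, with a 95% interval of 0.06 to 0.59). The call was lost in 10 of 13 other settings, among them the fit without the orientation term (limma adjusted p = 0.0643) and leaving out any array in turn (0.0623 to 0.235).

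Other substrates of protein kinase C at the cell membrane went both ways. Marcksl1 read 1.32, 1.31, 0.96 and 1.03 and was higher in MM in both fits (mean 1.16 ± 0.18, SD, n = 4, limma adjusted p = 0.000488). Marcks read -0.70, -0.62, -0.24 and -0.22 (mean -0.45), and Nrgn averaged -0.19. Basp1 averaged -0.39 and -0.93 by its 2 probes. These last 3 genes passed as lower with the orientation term and not without it.

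Stmn2 and Stmn3 encode neuronal stathmins, which bind tubulin and promote the shrinkage of microtubules in growth cones, and neither showed a steady direction. The Stmn2 probe (CS:15673:CGEN_MOUSE_EXT_3108408_1) gave -0.46 on array 1, -0.32 on array 2, 0.09 on array 3 and 0.11 on array 4. The sign thus followed the channel orientation, and the orientation term passed (limma adjusted p = 0.0207). The mean of -0.14 ± 0.29 (SD, n = 4) passed as lower with the orientation term (limma adjusted p = 0.0410) and not without it (0.493). It also missed the threshold with arrays centred (0.121), without array 3 (0.157) and without array 4 (0.149).

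Stmn3 had the widest range of the members. Its probe (CS:6508:CGEN_MOUSE_3006576_1) gave 3.11 on array 1 and 4.00 on array 2, above 95.4% and 97.1% of the values there, but arrays 3 and 4 both held the floor value. The orientations thus put it at opposite ends of the scale. The limma fit called it lower (adjusted p = 0.00638), which averages floor values with measured ones and gives no fold. Without the orientation term it did not pass (adjusted p = 0.724), and on arrays 1 and 2 alone it was higher (mean 3.56, adjusted p = 0.0296).

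Other probes at the floor on both arrays of the reversed orientation also tended to read high in the first orientation. There were 918 such probes with measured values on arrays 1 and 2, and their median there was 1.14, against -0.11 for the 13191 probes above the floor on all arrays. Of the 918 probes, 55.0% were at least 2-fold higher in MM on arrays 1 and 2, against 6.1% of the 13191. The value of Stmn3 on arrays 1 and 2 was above 93.1% of the 918 probes. The part of this shared pattern in the Stmn3 values was not tested.

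**Figure D2:**
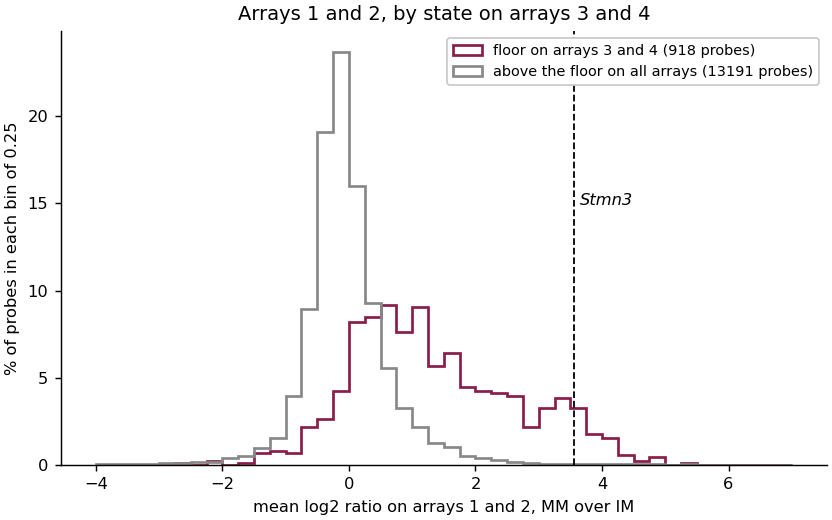
Distribution of the mean log2 ratio on arrays 1 and 2 for 918 probes at the floor on arrays 3 and 4 and for 13191 probes above the floor on all arrays, as a percentage of the probes of each set in bins of 0.25. The first set is shifted to positive values (median 1.14, against -0.11), and the dashed line marks Stmn3 at 3.56.

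Of the other stathmins, Stmn1, which is expressed in dividing cells, read 0.45, 0.44, -0.51 and -0.10 on arrays 1 to 4 and did not pass (limma adjusted p = 0.526). Stmn4 read 0.15, 0.05, -0.80 and -0.73, and passed as lower with the orientation term (0.00500) and not without it (0.354). Stmn1, Stmn2, Stmn3 and Stmn4 each had positive and negative values, so no stathmin kept a sign over the 4 arrays.

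**Figure D3:**
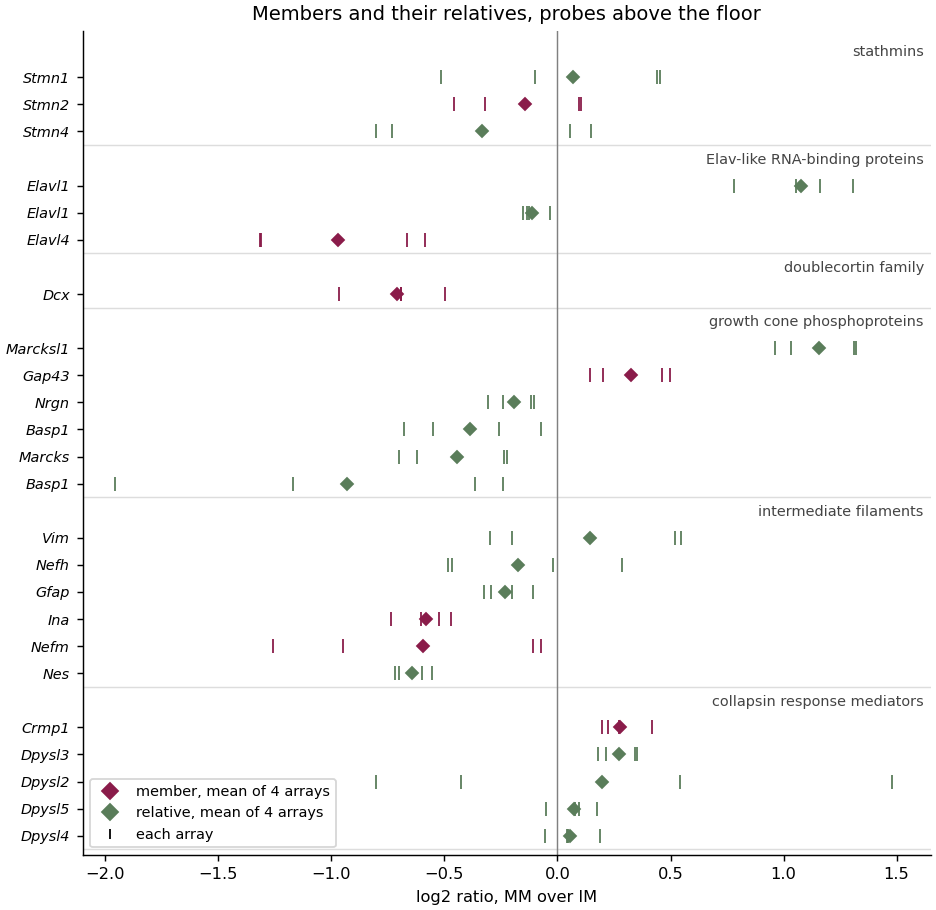
Log2 ratio of MM over IM for the members and their family relatives, for probes above the floor on all 4 arrays, with each array as a tick and the mean as a diamond. Genes with 2 probes appear more than once. In the families of Elavl4 and Ina, Elavl4 lies at -0.97 and an Elavl1 probe at 1.08, and Ina lies at -0.58 and Vim, which passed as higher only with the orientation term, at 0.14.

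Across the channel orientations most members kept their sign. In the plot of orientations, Ina, Dcx and Elavl4 had negative means on both axes, at -0.50, -0.59 and -0.62 across and -0.67, -0.83 and -1.31 down. Crmp1 and Gap43 had positive means on both. Of the 7 members above the floor, 4 were negative and 2 were positive on all 4 arrays. Among all 13191 probes above the floor 52.6% kept 1 sign, 30.0% as negative and 22.6% as positive. The median gap between the orientations' means was 0.24 for the 7 members and 0.30 for all these probes. Across the 13191 probes Pearson's r was 0.836 within the first orientation, 0.912 within the other and 0.113 to 0.274 between orientations. Over all 14184 probes tested, with floor values included, r was 0.762 and 0.95 within orientations and -0.349 to -0.26 between them.

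**Figure D4:**
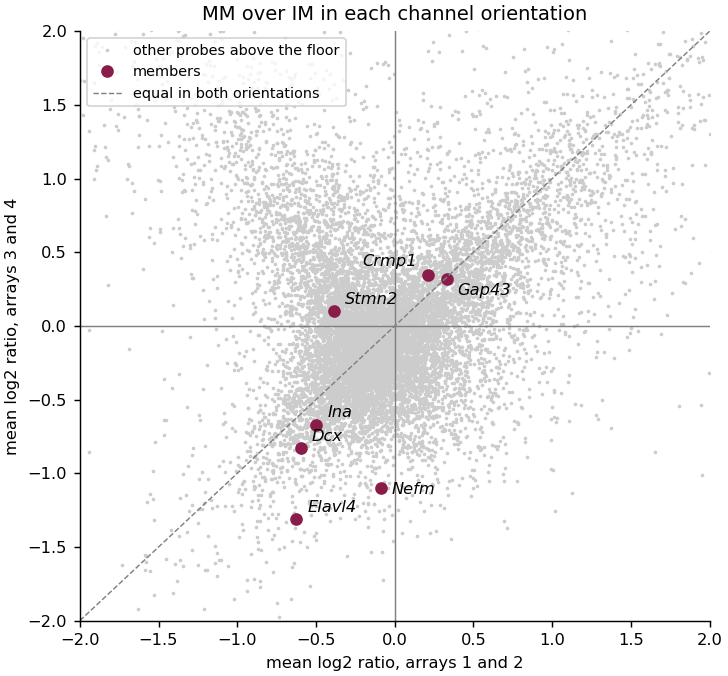
Mean log2 ratio of MM over IM on arrays 1 and 2 (horizontal) and on arrays 3 and 4 (vertical) for the 7 members above the floor and for all other such probes in grey. The dashed line marks equal values, and 441 probes lie outside the plotted range of -2 to 2. Nefm lies near 0 on the horizontal axis and at -1.10 on the vertical axis, and Stmn2 lies where the signs of the means differ.

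The wider set of family relatives had no common direction either. Of 19 genes listed, 18 were on the array with a symbol of their own and 16 had 4 values. Here and in the lists below, a gene counted as called if any of its probes was called. The shares over all probes count single probes, so genes with several probes had more ways to be called. With the orientation term 4 were higher in MM, 7 were lower, 1 of them (Prph) only through the floor, and 5 did not pass, beside 23.8% higher and 38.1% lower among all probes in that fit. In both fits Marcksl1, Elavl1 and Dpysl3 were higher and Nes was lower, beside 13.6% higher and 14.4% lower among all probes. The median of the 17 relatives' probes above the floor was -0.11.

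With the orientation term, other genes of the neuronal cytoskeleton were more often lower than higher, as were all probes. Of 15 tested genes of microtubules and axons, 9 were lower in MM in that fit, 3 were higher and 3 did not pass. The shares of all probes were 38.1% lower and 23.8% higher. The counts in both fits were 3 lower and 2 higher, beside 14.4% and 13.6% of all probes. In both fits Tubb3, the neuronal tubulin (-0.49), Map2, the dendritic microtubule protein (-0.38 ± 0.08, SD, n = 4) and Map1a, a relative of Map1b (-0.59), were lower. Map1b, the microtubule protein of growing axons, was higher in both fits at 1.58, 2.07, 1.50 and 2.05 on arrays 1 to 4, and Tuba1a was higher by 0.24. The median of the 17 probes of this list above the floor was -0.22.

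RNA-binding and splicing proteins of neurons went both ways. With the orientation term 5 of 11 tested genes were higher, 5 were lower and 1 did not pass, and in both fits 3 were higher and 2 lower. Among all probes the shares with the term, to which the synaptic and neurogenic counts also compare, were 23.8% higher and 38.1% lower. The shares in both fits were 13.6% higher and 14.4% lower. The splicing factors Rbfox1 and Rbfox2 went opposite ways in both fits. Rbfox1, which is largely found in neurons and muscle, read -0.80, -0.86, -1.45 and -1.10 (mean -1.05 ± 0.30, SD, n = 4, limma adjusted p = 0.00238). Rbfox2, which is broadly expressed, read 0.52, 0.55, 0.58 and 0.60 (mean 0.56 ± 0.03, adjusted p = 0.00119). Nova1, a splicing factor of neurons (0.49), and Fmr1, the fragile X protein (0.28), were also higher in both fits, and its relative Fxr1 was lower (-0.77). The probes of Ptbp2 (-0.20 and -0.44) and of Srrm4 (-0.16 and -0.13) were each split between called and not called.

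Of the synaptic and secretory genes, 10 of the 21 on the array could be tested. With the orientation term 2 of the 10 were higher, 3 were lower, 1 of those only through the floor, and 4 did not pass. Syt11 had a lower probe (-0.65) and a higher probe (0.43). The lower Syt11 probe passed in both fits, and the higher probe only with the term (limma adjusted p = 0.0215, and 0.148 without it). In both fits 0 of the 10 genes were higher and 1 was lower. Of 17 tested neurogenic transcription factors 5 were higher with the term, 5 were lower, 1 of those only through the floor, and 7 did not pass. In both fits Insm1 (0.33) and Neurod2 (1.56) were higher, and Ebf2 (-0.54) and Neurog1 (-0.31) were lower. The probes of Rest, the repressor of neuronal genes outside neurons, read -0.03 and 1.23 on average, and the second passed only with the orientation term (limma adjusted p = 0.00640, and 0.0802 without it).

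Markers of tissues that a dissection could carry were counted in the fit with the orientation term, in which 38.1% of all probes were lower and 23.8% higher. The shares of all probes called in both fits were 14.4% lower and 13.6% higher. Of 11 tested neural tube genes 6 were lower in MM and 2 higher, against 4 and 2 in both fits, with Fabp7, Sox2 and Irx3 among those lower in both fits at -1.61, -0.93 and -0.44. Pax6 had a higher probe at 1.58 and a probe at -0.15 that did not pass, and Prom1 was higher at 0.34. Of 13 tested genes of neural crest and glia 8 were lower, 3 of them only through the floor, and 3 higher, against 1 lower and 1 higher in both fits. Phox2a, a factor of autonomic neurons, was lower in both fits (-0.99) and Snai2 higher (1.77), while the crest factor Sox10 had values on arrays 3 and 4 alone (1.07 and 0.44). Of 10 tested somite and muscle genes 9 were lower, 1 of them only through the floor, and 1 was higher, against 7 lower and 1 higher in both fits, with Myl1 at -2.57, Tnnt2 at -1.44 and Tnni1 at -1.34, and Des at 0.97. The medians of probes above the floor were -0.17, -0.07 and -0.98 for these 3 lists. The tissue labels were read against markers of MM, of which Six2, Gdnf, Hoxa11 and Osr1 were higher, Wt1 was lower, Itga8 was high on arrays 1 and 2 (3.67 and 4.16) and at the floor on both others, and 4 of 10 did not pass. The part of such cells in the ratios of Elavl4, Dcx and Ina was not tested.

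The probes nearest to the median profile of the 7 members above the floor were sought among 10862 named probes above the floor. Nearness was the root mean square difference over the 4 arrays. The profile was -0.46, -0.32, -0.74 and -0.60. Its values are those of Stmn2 on arrays 1 and 2 and of Ina on arrays 3 and 4. Stmn2 changed sign and Crmp1 and Gap43 were positive on every array, so the profile does not describe each member. The nearest were Bex3 at 0.021, Nab1 at 0.041 and 3110021A11Rik at 0.042. The Bex3 probe read -0.44, -0.34, -0.70 and -0.60. A further Bex3 probe, which this likeness did not select, read -0.62, -0.65, -0.57 and -0.62 and was lower in MM in both fits.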

How the data were processed

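RNA of 2 mouse tissues was hybridised to 4 2-colour Compugen oligonucleotide arrays. The authors deposited a log2 ratio for each probe on each array. According to the labels' descriptions, the authors quantified spots with Imagene 5.5, reversed the channels of arrays 3 and 4 for the dye swap, fitted a lowess curve over 20.0% of the data at each point to adjust the control value, and raised control values under 10 to 10. Neither background correction nor spot filtering is described in the labels. Base 2 was inferred: with it, 98.9% to 100.0% of the ratios under 1 were whole thousandths (tolerance 0.01 of that step), against 1.11% to 3.08% with bases e and 10.

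Arrays 1 and 2 held 21509 and 21599 values, 16 and 8 at the floor, and arrays 3 and 4 held 15812 and 16242 values, 1672 and 1805 at the floor. The 14184 probes with 4 values were fitted in limma 3.58.1 (R 4.3.3) on a design of 2 columns, the tissue effect and the channel orientation, and p-values were adjusted by Benjamini-Hochberg over all of them. The residual then comes from arrays of the same orientation alone, so the fit without the term is given beside it. The fit was also run on simulated data with independent noise on each array. Such data cannot show whether shared RNA extracts would make the p-values too small. With 4 arrays, their number limits the precision.

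Symbols came from the platform annotation, updated through RefSeq (GRCm38.p6, used for names and neighbours). Of all probes, 17252 had 1 symbol, 156 several and 5294 none, 16572 matched and 4 changed. The members, the gene lists and the rule for named genes were chosen with earlier results of these data known. Every member and measured family relative was eligible for naming. Of the other lists the text could name, in each direction, up to 3 genes of smallest p called in both fits, genes whose probes disagree, and the 3 probes nearest to the members' profile. Marker genes named otherwise (Osr1, Itga8, Sox10) were chosen after their values were seen. Alternatives were the orientation term, floor values, centring, scaling, missing values, array weights and the arrays used.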

Additional observations from a re-analysis of the deposited data

How the results depend on the processing

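Elavl4 and Ina kept their direction and their call in 12 of 13 alternatives, Dcx in 10, Crmp1 and Nefm in 8, Stmn2 in 5 and Gap43 in 3; Stmn3 kept them in 8 of 12. Stmn2 reversed on arrays 3 and 4 alone (0.0996) and Stmn3 on arrays 1 and 2 alone (3.56); the cause was not tested. The 8779 calls over all probes became 3968 without the orientation term (1932 higher, 2036 lower), 5614 on arrays 1 and 2 alone, and 5808 to 6782 without each array in turn. The 8 member calls became 4 without the orientation term, 5 on arrays 1 and 2 alone, 5 on arrays 3 and 4 alone and 4 to 6 without each array. With arrays of the same orientation averaged to 1 value, limma called 0 probes and 0 members, with 1526 probes and 2 members at an unadjusted p under 0.05; for the single members this alternative was chosen after seeing the data (adjusted p 0.461 to 0.903). Fewer arrays or averaged pairs leave fewer residual degrees of freedom. Signal over background is unknown, and a value at the floor sets no fold.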

Other observations

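The labels do not say whether arrays of opposite orientation share RNA extracts. Across the 13191 probes above the floor, the difference of array 1 minus array 2 had a Pearson's r of -0.023 with the difference of array 3 minus array 4, and the differences had the same sign for 47.3% of probes. Among the 7 members above the floor the same sign was seen for 6. The probes share the same 4 arrays and are not independent, and the values are given as a description.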
